A study of Mus musculus with 8 samples.

Results

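The serotonin receptor genes Htr1a, Htr1b, Htr1d, Htr1f, Htr2a, Htr2c, Htr3a, Htr4, Htr5a and Htr7 were followed in the hippocampus of female mice. These 10 genes were picked by symbol from the 29442 genes of the count table, and all 10 had a mean count of at least 10. Total RNA came from 8 female C57BL/6 J mice aged 6 to 8 weeks. Of these, 4 received DHEA at 30 mg/kg/day by subcutaneous injection for 21 days, and 4 received sesame oil, the vehicle, on the same schedule. DHEA, dehydroepiandrosterone, is an adrenal steroid that tissues convert to androgens and estrogens. The comparison asks which transcripts of the hippocampus differ after this treatment. The labels give the tissue as hippocampus, while the methods describe the ventral part, and the mice had gone through behavioural tests before dissection. Libraries are named here by the number in their title, so that 3, 4, 7 and 11 are DHEA and 5, 9, 10 and 16 are sesame oil. The libraries held 35748416 to 38038361 counts in the DHEA group and 31483772 to 35418297 in the sesame oil group. The DHEA libraries differed more among themselves, with a chi-square per gene of 13.9 to 57.3 between pairs, against 7.82 to 14.7 between sesame oil pairs, and the pairs with library 4 ranged from 29.1 to 57.3. In edgeR, 0 of the 10 genes passed an unadjusted p of 0.05 with library 3 left out, and 1, Htr2c, with library 4 left out, beside 7.08% and 7.26% of all genes in those fits. Directions follow the deposited labels. The study's own table of changed genes carries the opposite sign for all 167 genes compared. By qRT-PCR in additional hippocampal samples, the paper reports Aox2, Pomc and Wnt3a higher and Avpr1a, Ccr10 and P2ry10b lower with DHEA. It describes these results as matching its sequencing. Which animals received DHEA was not settled here.

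Serotonin reaches the hippocampus through axons of raphe neurons, whose cell bodies lie in the brainstem. Its receptors are G protein-coupled, except for one family of ion channels. Receptors of the Htr1 and Htr5 families act mainly through Gi/o proteins and dampen the cell, those of the Htr2 family act through Gq and phospholipase C, and those encoded by Htr4, Htr6 and Htr7 act through Gs and raise cyclic AMP. The receptor encoded by Htr1a is known for inhibition of pyramidal neurons and as an autoreceptor on raphe neurons. The receptor encoded by Htr2c is known from neurons and, at very high density, from the choroid plexus epithelium, which makes cerebrospinal fluid. The subunit encoded by Htr3a forms a cation channel that marks a class of interneurons.

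Markers of the labelled tissue were present in every library. The summed level of 8 markers that define hippocampal neurons lay between 1107 and 1326 CPM (counts scaled to a common library total, with TMM normalization), and none of the 8 was at 0. Neurod6, a transcription factor of pyramidal neurons, reached 105 ± 9.94 FPKM (SD, n = 8). Markers of raphe serotonin neurons summed to 5.36 to 9.65 CPM, and their defining genes Slc6a4, the serotonin transporter, and Fev, a transcription factor, were at 0 in 3 and 5 of the 8 libraries.

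The receptor genes covered a wide range of levels. In FPKM, which divides counts by gene length and library total and so allows genes to be set side by side, Htr2c was highest with 16.1 ± 6.17 FPKM (SD, n = 8). Htr1a followed with 8.62 ± 0.779 and Htr3a with 3.27 ± 0.652 FPKM. Htr7, whose receptor acts through Gs, had a level of 2.68 ± 0.267 FPKM. Levels were 2.44 ± 0.369 FPKM for Htr2a, the other Gq-coupled member, and 2.32 ± 0.171 FPKM for Htr5a. Htr1b, a receptor of axon terminals, stood at 1.74 ± 0.132 and Htr4, a Gs-coupled receptor, at 1.54 ± 0.227 FPKM. The lowest were Htr1f with 0.703 ± 0.151 FPKM and Htr1d with 0.0383 ± 0.0228 FPKM. Htr1d rested on 2 to 21 counts per library.

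**Figure D1:**
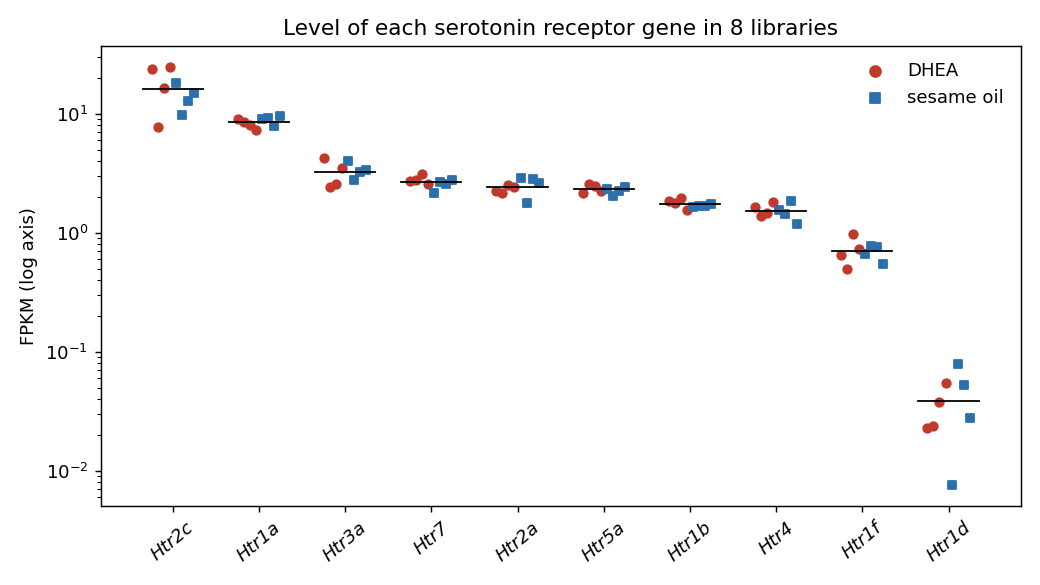
Level of each of the 10 receptor genes in FPKM on a log axis, with 1 point per library (circles DHEA, squares sesame oil) and a line at the mean of all 8. Htr2c spreads from 7.76 to 24.9 FPKM, wider than Htr1a with 7.36 to 9.64 FPKM.

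Neighbours in this order were compared within each library with a two-sided exact sign-flip permutation test on log2(FPKM + 0.01), adjusted over the 9 pairs. The level of Htr2c was 1.75-fold that of Htr1a and higher in 7 of 8 libraries (exact p = 0.0234, adjusted p = 0.0422). Library 4 was the exception, with 7.76 FPKM for Htr2c and 8.61 for Htr1a. Leaving out any 1 library other than library 4 brought the adjusted p of this pair to between 0.0563 and 0.0844 in the exact test. With 7 libraries, 1 of them reversed, the exact p cannot be lower than 0.0312. The number of libraries alone can thus bring this loss, and nothing is concluded from it. Over all 8 libraries the adjusted p of 0.0422 in the exact test was close to the threshold, so this call is weak. Htr1a was above Htr3a (2.67-fold), Htr5a above Htr1b (1.33-fold), Htr4 above Htr1f (2.2-fold) and Htr1f above Htr1d (16.1-fold) in 8 of 8 libraries. Each of these 4 pairs had an exact p of 0.00781, the smallest this test allows, and an adjusted p of 0.0176. Htr3a, Htr7, Htr2a and Htr5a did not differ from their neighbours among themselves beyond the spread (adjusted p of 0.131, 0.272 and 0.406 in the exact test), nor did Htr1b and Htr4 (adjusted p = 0.131 in the exact test). The length behind the deposited FPKM sets part of this order and of these folds. It was 15.9 kb for Htr4, against 4.66 kb for its longest GENCODE vM21 transcript. For Htr2a it was 2.94 kb against 5.61 kb, and for Htr1d 8.05 kb against 2.9 kb. Per kilobase of the GENCODE transcript, Htr4 moved up to the third place with 5.26 ± 0.771 CPM per kb (SD, n = 8). Htr2a moved down to the eighth with 1.28 ± 0.193, while 7 of the 10, among them Htr2c and Htr1a, kept their places. Htr1f and Htr1d stood at 0.684 ± 0.147 and 0.106 ± 0.0631 CPM per kb. The fold of Htr4 over Htr1f was thus larger on these lengths, and that of Htr1f over Htr1d smaller.

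By coupling, the Gq pair Htr2a and Htr2c summed to 18.6 ± 6.28 FPKM (SD, n = 8) and the 5 Gi/o members to 13.4 ± 0.762 FPKM. This order did not hold in every library. In libraries 4 and 9 the Gq pair summed to 9.92 and 11.6 FPKM, below the 13.5 and 13.9 FPKM of the Gi/o members. These libraries also had the lowest sums of choroid plexus markers, 356 and 940 CPM, as described below. The Gs-coupled Htr4 and Htr7 summed to 4.22 ± 0.283 FPKM. This last sum depends on the length used for Htr4, since per kilobase of the GENCODE transcripts it was 8.64 ± 0.725 CPM per kb, beside 17 ± 6.05 for the Gq pair and 13.6 ± 0.745 for the Gi/o members. All 10 members together gave 30 to 48.7 FPKM, whereas the 9 without Htr2c stayed between 22.2 and 24.5 FPKM. Most of the spread in the receptors' total was therefore that of Htr2c.

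None of the 10 receptor genes differed between DHEA and sesame oil beyond the spread between mice. With edgeR's quasi-likelihood test, 0 of 10 had an unadjusted p under 0.05, and 0 had one with DESeq2. Among all 27612 genes tested, 9.31% passed this threshold, and 13.1% of the 16813 genes whose mean count was 10 or more did. No member met the thresholds of the methods, that is an unadjusted p under 0.05 together with a 2-fold difference either way, reached by 1.6% of all genes. After adjustment 0% of the genes (0) were under 0.05 in edgeR, where 2571 had an unadjusted p under 0.05, while DESeq2 gave 153 at its adjusted p. Of the members, 6 had a positive and 4 a negative log2 fold change, with a median of 0.08 beside 0.01 over all genes tested. The groups overlapped in all 10 members. Groups without overlap occurred in 5.04% of all genes tested and in 7.17% of those at a mean count of 10 or more, so 0 of 10 is near the background.

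**Figure D2:**
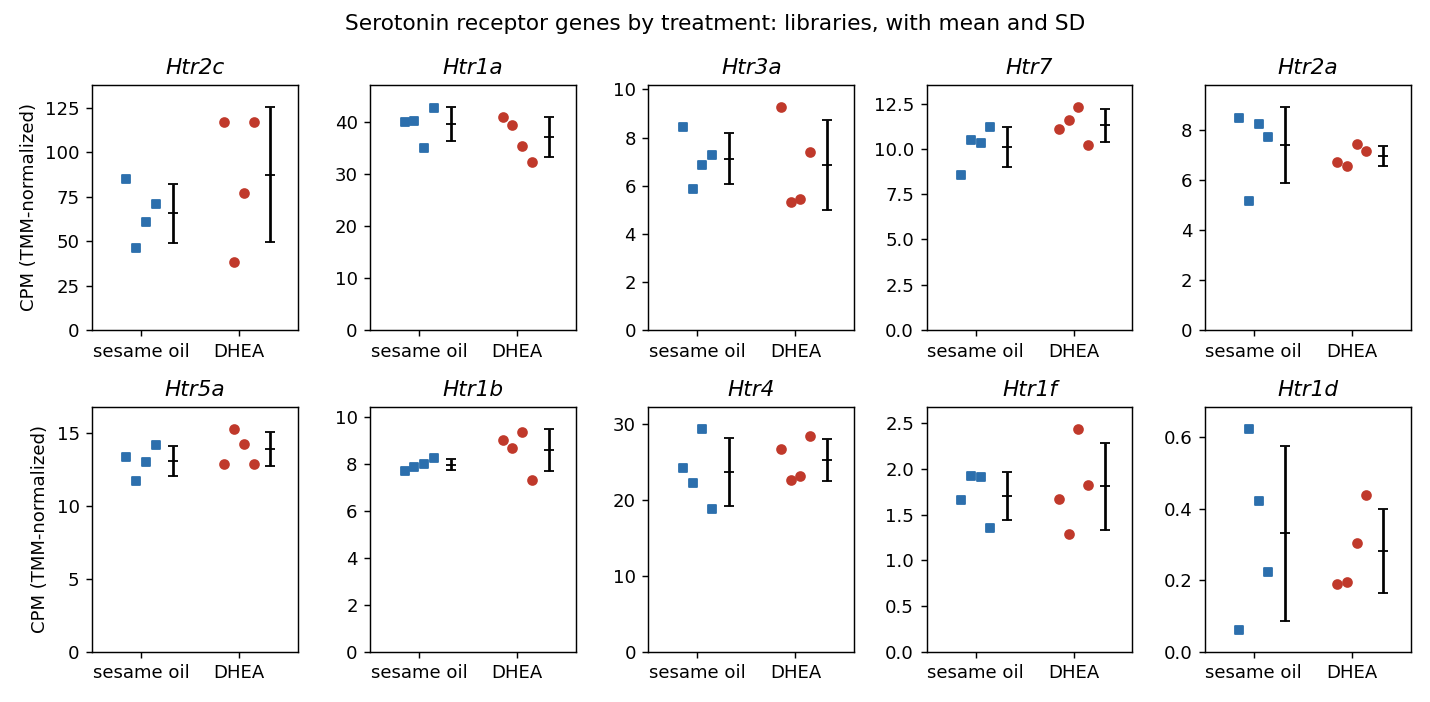
Level of each receptor gene in CPM (TMM-normalized, linear axis from 0) by treatment, with 1 point per library and, beside the points, the mean with an error bar of 1 SD (4 libraries per group). The 2 groups overlap in every panel, and the Htr2c points of the DHEA group run from 38 to 117 CPM.

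Of the Gi/o-coupled members, Htr1a, Htr1b and Htr5a were measured with the smallest errors. Htr1a was measured at 40.9, 39.5, 35.5 and 32.4 CPM in DHEA libraries 3, 4, 7 and 11, and at 40.1, 40.3, 35 and 42.8 CPM in sesame oil libraries 5, 9, 10 and 16. Library 11 was lowest and library 16 highest, with the other 6 in between. Its group means were 37.1 ± 3.89 and 39.6 ± 3.28 CPM (SD, n = 4 each), and the log2 fold change was -0.09 with a standard error of 0.09 (95% interval -0.26 to 0.08, adjusted p = 0.666 in edgeR). Htr1b ranged from 7.31 to 9.35 CPM with DHEA and from 7.70 to 8.25 CPM with sesame oil, a log2 fold change of 0.11 ± 0.12 (standard error). For Htr5a the ranges were 12.9 to 15.3 and 11.7 to 14.2 CPM and the log2 fold change was 0.09 ± 0.11. The low members were measured less well. The 95% interval of the log2 fold change ran from -0.44 to 0.59 for Htr1f, which had 43 to 88 counts, and from -1.42 to 0.95 for Htr1d.

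Of the Gs-coupled members, Htr7 was measured at 11.1, 11.6, 12.3 and 10.2 CPM in DHEA libraries 3, 4, 7 and 11, and 8.54, 10.5, 10.3 and 11.2 CPM in sesame oil libraries 5, 9, 10 and 16. Sesame oil library 5 was low, and the other 7 libraries overlapped. The log2 fold change was 0.16 with a standard error of 0.12 (95% interval -0.07 to 0.39, adjusted p = 0.666 in edgeR). Htr4 ranged from 22.7 to 28.5 CPM with DHEA and from 18.8 to 29.4 CPM with sesame oil, with a log2 fold change of 0.09 ± 0.12.

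The ion channel subunit Htr3a was measured at 9.26, 5.30, 5.44 and 7.39 CPM in DHEA libraries 3, 4, 7 and 11, and at 8.42, 5.87, 6.87 and 7.27 CPM in sesame oil libraries 5, 9, 10 and 16. The DHEA group held both the highest and the lowest values. The log2 fold change was -0.05 with a standard error of 0.18 (adjusted p = 0.935 in edgeR). Of 10 genes listed as markers of the interneurons that carry this receptor, 0 had an unadjusted p under 0.05 in edgeR. Of all genes at a mean count of 10 or more, 13.1% had one. The sum of these markers lay between 728 and 821 CPM. Prox1, with 112 to 145 CPM, is also among the dentate gyrus markers used below, and Calb2 among the ventral hippocampus markers. The sum is therefore not a measure of these interneurons alone. Cck and Npy, neuropeptide genes and the highest of these markers in FPKM, had log2 fold changes of 0.01 ± 0.08 and 0.06 ± 0.09 (standard error).

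Htr2a, a Gq-coupled receptor, ranged from 6.56 to 7.41 CPM with DHEA and from 5.16 to 8.45 CPM with sesame oil, which gave a log2 fold change of -0.09 ± 0.15 (standard error). Htr2c was measured at 117, 38, 77.1 and 117 CPM in DHEA libraries 3, 4, 7 and 11, and at 85.0, 45.9, 60.8 and 71.1 CPM in sesame oil libraries 5, 9, 10 and 16. Libraries 3 and 11 were highest and library 4, of the same group, was lowest, so the DHEA group enclosed the other one. The means were 87.4 ± 38 and 65.7 ± 16.5 CPM (SD, n = 4 each). The log2 fold change of 0.41 had a standard error of 0.24 (95% interval -0.06 to 0.88, adjusted p = 0.608 in edgeR), and the exact permutation test on CPM gave p = 0.371.

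The start regions of these 2 Gq-coupled genes are shown because Htr2c had a spread wide for its abundance and Htr2a holds a match to a steroid receptor motif. The sequences are from RefSeq, build GRCm38.p6, plus strand, and span 250 bases before to 50 bases after the annotated start. The counts were made on GRCm39, and no coordinate of theirs was used. Htr2c lies on chromosome X (chrX:146962263-146962562) and Htr2a on chromosome 14 (chr14:74640624-74640923). Capitals mark TGTTCT, a half-site bound by androgen and glucocorticoid receptors.
Htr2c: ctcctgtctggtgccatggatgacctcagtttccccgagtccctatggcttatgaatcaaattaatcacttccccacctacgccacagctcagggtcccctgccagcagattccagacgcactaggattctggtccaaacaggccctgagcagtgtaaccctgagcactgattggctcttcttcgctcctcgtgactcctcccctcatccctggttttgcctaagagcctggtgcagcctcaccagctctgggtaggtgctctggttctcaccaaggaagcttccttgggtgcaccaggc
Htr2a: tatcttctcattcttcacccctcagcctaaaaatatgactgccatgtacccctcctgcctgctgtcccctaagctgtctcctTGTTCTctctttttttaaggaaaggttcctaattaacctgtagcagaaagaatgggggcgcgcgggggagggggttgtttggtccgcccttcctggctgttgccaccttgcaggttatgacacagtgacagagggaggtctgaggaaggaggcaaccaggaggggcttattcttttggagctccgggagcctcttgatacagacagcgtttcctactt
Windows of 8 of the 10 members were found, 9 windows in all, and TGTTCT occurred on either strand in 1 of them, that of Htr2a, starting at position -168. It occurred in 19% of all 32851 windows. TAATCC, the motif of the choroid plexus factor encoded by Otx2, occurred in 0 of the 9 windows and in 7.06% of all. A match of 6 letters describes the sequence and shows no binding.

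The spread of Htr2c among libraries was large for a gene of its abundance. Its coefficient of variation over the 8 libraries was 38.5%, while the median was 7.33% over 4133 genes with a mean count within 2-fold of it. Of those genes, 12 (0.29%) varied more. The coefficients of variation of Htr1a, Htr5a, Htr1b and Htr7 were 9.36%, 8.27%, 8.37% and 10.5%, beside medians of 8.10%, 10.8%, 13.0% and 11.7% over genes of like abundance. Those of Htr4 and Htr3a were 14.5% and 20.2%, beside medians of 8.96% and 14.0%, and 15.3% and 20.9% of like genes varied more. Htr2a and the low Htr1f and Htr1d had 14.6%, 20.5% and 58.3%, beside medians of 13.9%, 26.2% and 51.3%.

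Htr2c moved from library to library together with markers of the choroid plexus. The sum of 12 such markers was 6968, 356, 3559 and 6432 CPM in DHEA libraries 3, 4, 7 and 11, and 4660, 940, 3183 and 3613 CPM in sesame oil libraries 5, 9, 10 and 16. The same libraries were thus high and low as for Htr2c, and the sum differed 19.6-fold between library 3 and library 4. Ttr, transthyretin and the most abundant marker, ranged from 60.4 CPM in library 4 to 4015 CPM in library 3. None of the 12 markers was at 0 in any library. Pearson's r between Htr2c and this sum was 0.984 over the 8 libraries (exact permutation p = 0.000174, adjusted p = 0.00174 over the 10 members) and Spearman's rho was 0.976 (exact permutation p = 0.000397, adjusted p = 0.00397). Without libraries 3 and 4, the farthest from the median sum, r was 0.97. The treatment groups, with 4 libraries each, are too small for a correlation of their own. In bulk tissue, fewer cells of a type and less RNA per cell cannot be told apart.

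**Figure D3:**
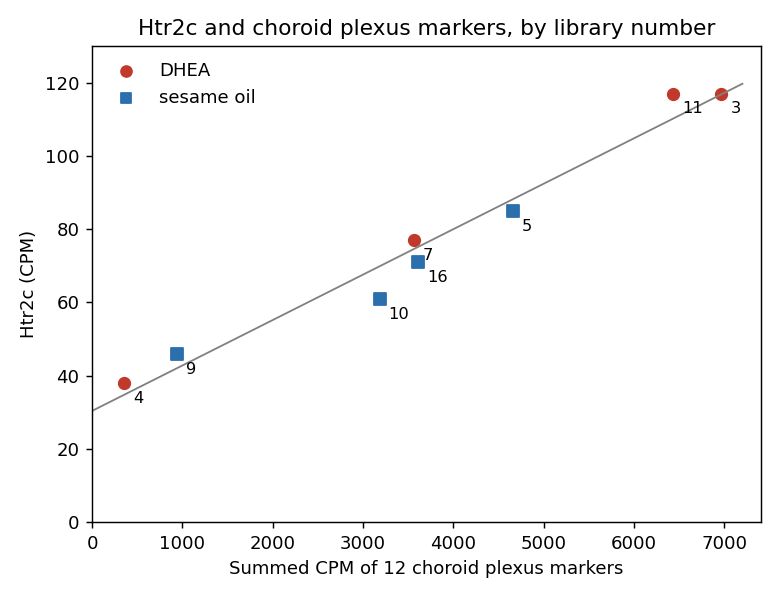
Htr2c in CPM against the summed CPM of 12 choroid plexus markers, 1 point per library with its number (circles DHEA, squares sesame oil) and the least squares line over all 8. The points follow the line from library 4 at the lower left to library 3 at the upper right, and both treatments lie along it.

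A straight line through these points had an intercept of 30.4 CPM, and 96.9% of the variance lay along it. The SD of Htr2c was 29.5 CPM, and the residual SD about the line was 5.64 CPM. The residuals of the 4 DHEA libraries were between 0.385 and 6.81 CPM, and those of the sesame oil libraries between -9.18 and 3.85 CPM. The marker sum was 4329 ± 3042 CPM with DHEA and 3099 ± 1567 CPM with sesame oil (SD, n = 4 each, exact permutation p = 0.571). All 12 markers had a positive log2 fold change, with a median of 0.45, and 0 had an unadjusted p under 0.05 in edgeR, beside 13.1% of all genes at a mean count of 10 or more.

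Of the other receptor genes, Htr3a had the closest relation to the choroid plexus sum. Its r was 0.818 (exact permutation p = 0.0142, adjusted p = 0.0711) and its rho 0.905 (exact permutation p = 0.00456, adjusted p = 0.0228), but r was 0.596 without libraries 3 and 4, so its size rests in part on those libraries. The remaining 8 members had r between -0.28 and 0.487, and the smallest adjusted p among them was 0.712 for r and 0.66 for rho in the exact permutation test.

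The Htr2c estimate depended on which libraries entered and on how the marker sum was treated. Without library 4, the DHEA library with the least marker RNA, the log2 fold change was 0.65 with a standard error of 0.15 (unadjusted p = 0.000264 and adjusted p = 0.234 in edgeR). The 3 DHEA libraries that remained had marker sums of 3559 to 6968 CPM. Without sesame oil library 5 the log2 fold change was 0.56 (unadjusted p = 0.0419 in edgeR), and without library 3 or library 11 it was 0.24. With the marker sum as a covariate on a linear scale the log2 fold change of Htr2c was 0.01 with a standard error of 0.07 (adjusted p = 0.976 in edgeR). With the log2 of the sum in its place it was 0.30 with a standard error of 0.08 (unadjusted p = 0.000722 and adjusted p = 0.0857). The 2 forms of the covariate, both added after the data were seen, thus gave different answers, and the part of the choroid plexus in the treatment difference was not settled by them.

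**Figure D4:**
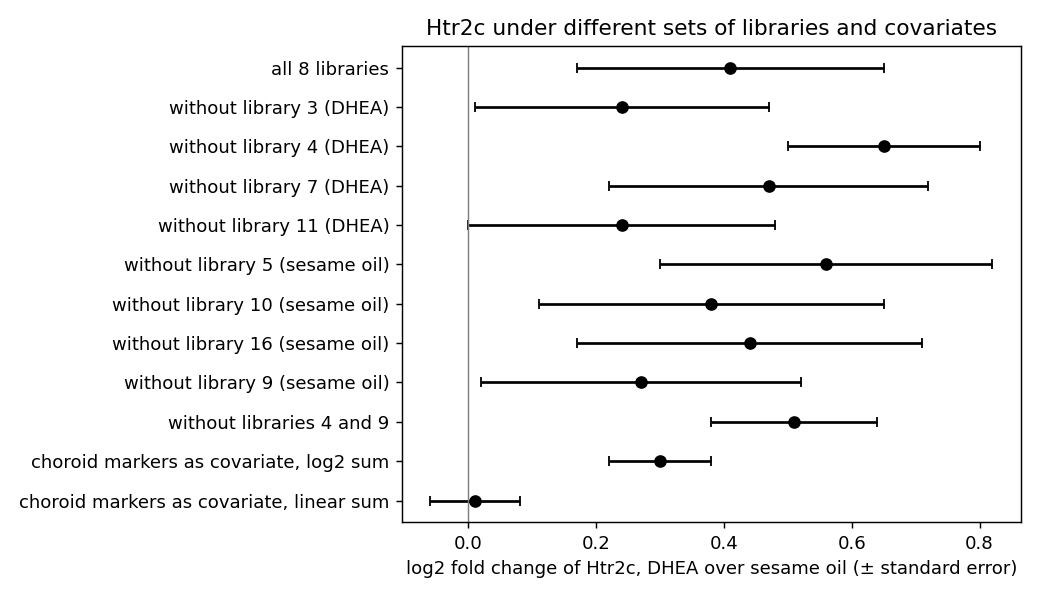
Log2 fold change of Htr2c, DHEA over sesame oil, from edgeR with its standard error, for all 8 libraries, with libraries left out, and with the choroid plexus marker sum as a covariate. The estimate runs from 0.01 with the linear covariate to 0.65 without library 4.

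The genes whose level followed a receptor most closely were ranked by Pearson's r of log2(CPM + 0.5) over the 8 libraries among 12779 genes whose mean count was 100 or more. They are a description, with no test. For Htr2c they were Pon3, a paraoxonase (r = 0.989), and Sgms2, a sphingomyelin synthase (r = 0.988). Pon3 was 37.4 CPM in library 3 and 6.70 CPM in library 4. Of the 12 choroid plexus markers, Enpp2 and Sostdc1 stood highest in this list, at ranks 21 and 26, and Ttr stood lowest, at rank 135. For Htr1a the closest were Gm2137 (0.959) and Kctd8, whose protein is an auxiliary subunit of GABA-B receptors (0.956). For Htr3a they were the mitochondrial carrier Slc25a39 (0.971) and the aldehyde dehydrogenase Aldh2 (0.964).

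The 4 Htr genes outside the 10 were low in CPM, with sums of 6.64 to 9.84 CPM per library, beside 149 to 236 CPM for the 10 members. Htr6, a Gs-coupled receptor, was 4.36, 4.52, 4.16 and 4.46 CPM in DHEA libraries 3, 4, 7 and 11, and 3.59, 3.79, 3.39 and 3.52 CPM in sesame oil libraries 5, 9, 10 and 16. All DHEA values lay above all sesame oil values, as happened in either direction in 7.17% of genes whose mean count was 10 or more. The log2 fold change was 0.29 with a standard error of 0.16 (unadjusted p = 0.0836 and adjusted p = 0.587 in edgeR). Its unadjusted p was under 0.05 in 3 of 22 fits, among them the fit with the GC trend removed (0.019 in edgeR). Htr5b had 0.996 ± 0.231 FPKM (SD, n = 8) and a log2 fold change of 0.14 ± 0.21 (standard error). The length behind its FPKM was 4.35 kb, against 1.94 kb for its longest GENCODE transcript, so its level per kilobase depends on the length used. For Htr6 these lengths were 3.74 and 2.34 kb. Htr2b and Htr3b had at most 3 and 4 counts in any library, too few for a comparison. Htr3b was at 0 in all DHEA libraries, where 3 counts would equal 0.0808 to 0.0841 CPM. It was also at 0 in sesame oil libraries 9 and 10, with 1 count in library 5 and 4 in library 16.

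Genes that make, move and break down serotonin or carry the signal of its receptors were described from 4 lists with 57 genes. Of these, 11 (19.3%) had an unadjusted p under 0.05 in edgeR, 3 higher and 8 lower with DHEA, beside 13.1% of all genes at a mean count of 10 or more, which 55 of the 57 reached. After adjustment in edgeR none was under 0.05, the lowest adjusted p being 0.24. After the GC trend of every library was removed, 7 of the 11 still had an unadjusted p under 0.05. In that fit 11.6% of all genes had one, so 7 of 57 genes is near the background. The lists were chosen with results of these libraries known, so these counts are a description.

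**Figure D5:**
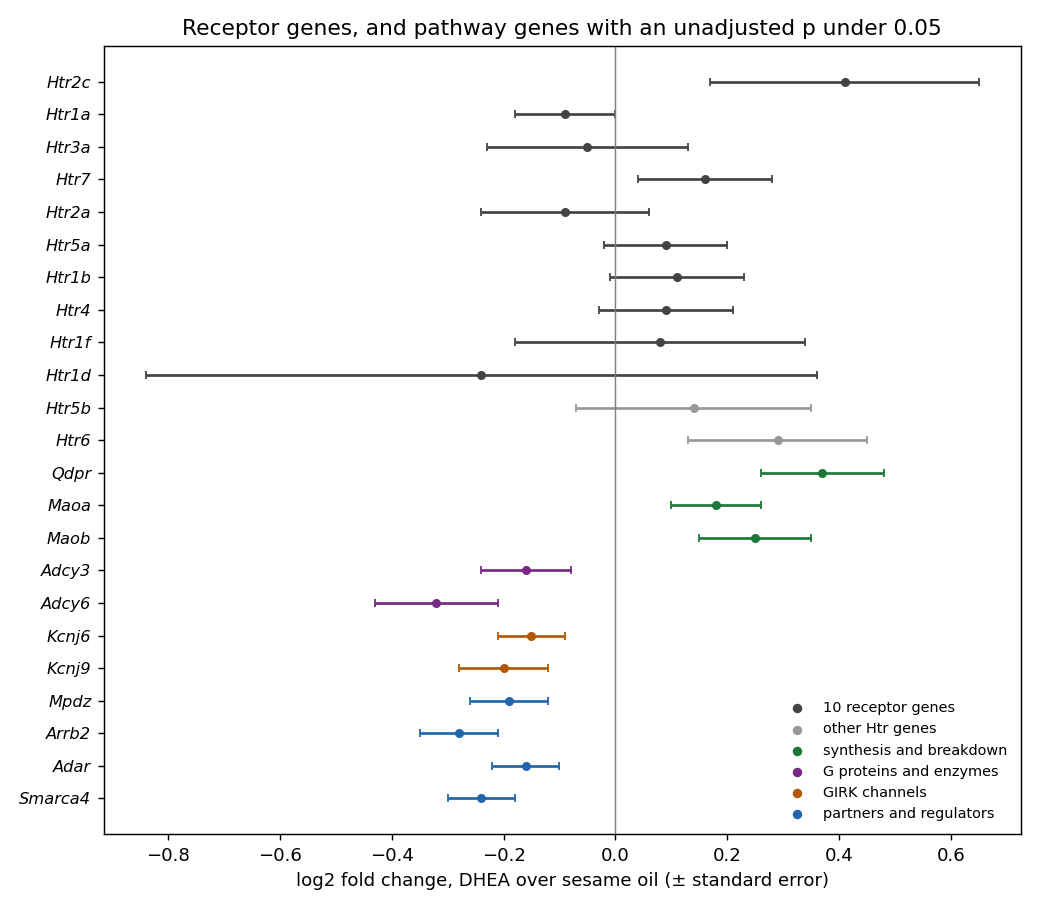
Log2 fold change, DHEA over sesame oil, from edgeR with its standard error for the 10 receptor genes, for Htr5b and Htr6, and for the 11 pathway genes with an unadjusted p under 0.05, which were drawn because of that p. Of these 11, 3 lie to the right of 0 and 8 to the left, and the widest bar is that of Htr1d.

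In the list of serotonin synthesis, transport and breakdown, 3 of 15 genes had an unadjusted p under 0.05, all higher with DHEA, and the median log2 fold change was 0.13. Of all genes at a mean count of 10 or more, 6.85% were higher at this threshold. After GC removal 1 of the 3, Qdpr, still passed it, beside 11.6% of all genes in that fit. Qdpr, which regenerates the tetrahydrobiopterin needed by tryptophan hydroxylase, was 181, 228, 162 and 140 CPM in DHEA libraries 3, 4, 7 and 11, and 136, 157, 134 and 124 CPM in sesame oil libraries 5, 9, 10 and 16. Library 4 was high, while library 11 fell within the sesame oil range (log2 fold change 0.37, standard error 0.11, adjusted p = 0.293 in edgeR). Maoa and Maob, the monoamine oxidases that degrade serotonin, had log2 fold changes of 0.18 ± 0.08 and 0.25 ± 0.10 (standard error), and in both the groups overlapped. After GC removal their unadjusted p was 0.241 and 0.0874 in edgeR. Tph2, the neuronal tryptophan hydroxylase, had 0.348 FPKM on average and a log2 fold change of 0.34 ± 0.34.

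Among 20 genes for G proteins, adenylyl cyclases and phospholipases C, 2 had an unadjusted p under 0.05, both cyclases that were lower with DHEA, a share no larger than the 13.1% of all genes at a mean count of 10 or more. These were Adcy6 (log2 fold change -0.32 ± 0.11) and Adcy3 (-0.16 ± 0.08), and after GC removal the unadjusted p of Adcy3 was 0.0678 in edgeR. Gnas, the Gs subunit, and the cyclase Adcy1, the genes with the highest mean FPKM of the list, had log2 fold changes of -0.02 ± 0.06 and 0.06 ± 0.08. Of the 4 GIRK potassium channel genes, which Gi/o-coupled receptors open, Kcnj6 and Kcnj9 passed this threshold, with log2 fold changes of -0.15 ± 0.06 and -0.20 ± 0.08. After GC removal the unadjusted p of Kcnj9 was 0.0679 in edgeR. Kcnj6 lay between 207 and 234 CPM with DHEA and between 238 and 263 CPM with sesame oil, so its groups did not overlap. Groups without overlap, in either direction, occurred in 7.17% of genes at a mean count of 10 or more. Kcnj3 had a log2 fold change of 0.05 ± 0.06.

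Among 18 receptor partners and regulators, 4 were lower with DHEA at an unadjusted p under 0.05 and 0 were higher, beside 6.26% lower and 6.85% higher of all genes at a mean count of 10 or more. Smarca4, the ATPase of a chromatin remodelling complex, was 132, 122, 132 and 127 CPM in DHEA libraries 3, 4, 7 and 11, and 159, 148, 151 and 150 CPM in sesame oil libraries 5, 9, 10 and 16. The gap between the groups exceeded the spread within either (log2 fold change -0.24, standard error 0.06, adjusted p = 0.24 in edgeR and 0.00805 in DESeq2). Arrb2, a beta-arrestin that takes activated receptors out of signalling, was 34.1, 32.5, 37.2 and 36.9 CPM in the DHEA libraries in the same order, and 44.0, 42.0, 42.1 and 43.0 CPM in the sesame oil libraries. Its groups were likewise apart (log2 fold change -0.28, standard error 0.07, adjusted p = 0.245 in edgeR and 0.0198 in DESeq2). Adar, an RNA editing enzyme for which Htr2c transcripts are a known substrate, and Mpdz, a scaffold that binds the Htr2c receptor, had log2 fold changes of -0.16 ± 0.06 and -0.19 ± 0.07. All 4 kept an unadjusted p under 0.05 after GC removal, where 11.6% of all genes in that fit had one in either direction. Groups also did not overlap for Adar and for Cc2d1a, another gene of this list, while those of Mpdz overlapped. The share without overlap was 7.17% of all genes at a mean count of 10 or more. Dlg4, a postsynaptic scaffold, and Rgs4, a regulator of G protein signalling, had log2 fold changes of -0.04 ± 0.06 and 0.03 ± 0.09.

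Some properties of the libraries moved with treatment. Every DHEA library had more counts than every sesame oil library. The Spearman correlation across genes between GC content and a library's log2 ratio to the mean of all libraries was -0.152 to -0.00961 with DHEA and 0.0684 to 0.178 with sesame oil. With this trend removed, the receptor genes' smallest unadjusted p was 0.182 in edgeR, for Htr1a, and 0 of 10 passed 0.05, beside 11.6% of all genes in that fit. For the other results the part of depth was not tested beyond thinning all libraries to the smallest total, after which 0 of 10 members and 9.19% of all genes passed.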

How the data were processed

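Total RNA was sequenced from hippocampal tissue of 8 mice, 1 library each. Reads were trimmed and aligned to GRCm39 with fastp and HISAT2 and counted with HTSeq, according to the submitters' processing notes, which give no versions. The authors deposited raw counts for 29442 genes, and FPKM values that equal the counts over library total and 1 length per gene (within 0.1% for 25234 of 25234 genes). The length source is not given in the sources used here.

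Groups came from the deposited labels, which give no batch or pairing. The methods give 4 mice per group. The main test was edgeR 4.0.16 (R 4.3.3, TMM, quasi-likelihood, Benjamini-Hochberg) on 27612 genes with at least 1 count. Standard errors are the log2 fold change over the square root of F. Exact permutation tests of 4 against 4 use 70 allocations (smallest p 0.0286), and those of correlations use 40320 pairings. At these totals 3 counts correspond to 0.0808 to 0.0952 CPM, which covers counting error only. In simulated data of this comparison with 100 genes changed 2-fold and 100 changed 4-fold, edgeR (26669 genes) recovered 200 of 200 and called 60 unchanged ones. DESeq2 1.42.0 recovered 199 and called 39, and limma-trend (limma 3.58.1) recovered 178 and called 16. The changed genes were drawn from those with a mean count of at least 100, above Htr1d (10.8) and Htr1f (61.8). Noise was drawn independently for each gene and library, without trends that genes share within a library. The recovery therefore does not carry over to low members or to such trends. Smaller changes were not simulated.

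The 10 members, the 18 gene lists and the tests were chosen with earlier results of these data known. Named genes are the members, the other Htr genes, list genes with an unadjusted p under 0.05, the 2 with the highest FPKM in each list, the 2 most like each of the 3 highest members, and defining markers at 0. Sostdc1, Tph2 and other pathway genes beyond this rule were named after their values were seen. GC content came from GENCODE vM21 transcripts by symbol, matched for 92.7% of genes at a mean count of 10 or more. Promoters of Htr3a and Htr4 and all protein sequences were not used here.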

Additional observations from a re-analysis of the deposited data

Results flagged for a closer look

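Within a group of 4 libraries, 2 of 30 combinations of an Htr gene, or the choroid plexus sum, and a treatment had 1 library far from the other 3, where chance would give about 1.5. Htr5b in DHEA library 11 was 3.70 CPM, below the 4.72 to 4.91 CPM of the other 3, a gap of 0.841 of the group's range. Htr2b in DHEA library 3 was 0.0808 CPM, which is 3 counts, while the other 3 DHEA libraries had 0, so the gap was 1, the whole range.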

How the results depend on the processing

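Over 21 alternatives, the 10 members' log2 fold changes gave 210 values, of which 195 kept direction and side of the 0.05 threshold, 4 crossed to an unadjusted p under 0.05 and 11 reversed. The 4 were all Htr2c (0.65 without library 4, 0.56 without library 5, 0.51 without libraries 4 and 9, 0.30 with the log2 choroid covariate), each making 1 member under that threshold, beside 6.53% to 10.9% of all genes in those fits. Leaving out 1 library at a time gave 0 to 1 such members, beside 6.53% to 13.4% of all genes, and log2 fold changes of 0.24 to 0.65 for Htr2c, -0.58 to 0.25 for Htr1d, -0.10 to 0.20 for Htr1f, -0.23 to 0.04 for Htr3a and -0.01 to 0.22 for Htr4. Without libraries 4 and 9, Htr1d was 0.38 and Htr5a -0.02. Htr1f was -0.01 after GC removal and -0.05 after thinning. None of the 11 reversed values had an unadjusted p under 0.05 in its fit. The cause was not tested.

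Genes with an adjusted p under 0.05 numbered 0 in the main edgeR test, 153 with DESeq2, 4 with robust moderation, 84 and 56 with the log2 and linear choroid covariates, 12 without libraries 4 and 9, and 0 to 93 when 1 library was left out, the highest without library 7. The 442 genes past the thresholds of the methods became 164 with DESeq2, 284 with at least 10 counts, 62 with filterByExpr, 43 after GC removal, which was limited to 15594 genes at a mean count of 10 or more, and 48 and 1 with limma-trend at pseudocounts of 0.1 and 1. With GENCODE lengths 8 neighbouring pairs differed in place of 5, and with 1 library left out 4 to 5 did. The planned GC removal over all tested genes was not run, since 77.2% had a value. The choroid covariates, the fit without libraries 4 and 9, GC removal on genes with a value and GENCODE lengths were chosen after seeing the data. The methods name littermates as controls, but the labels give neither a litter nor a pairing, so no paired analysis was possible. Depth limits Htr1d, Htr2b and Htr3b.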

Other observations

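Markers of regions that a hippocampal dissection can include were also measured. Their counts, and those of the hippocampal lists that follow, are to be read beside a share of all genes. Of those at a mean count of 10 or more, 13.1% had an unadjusted p under 0.05. Of 10 thalamus markers, 1 had an unadjusted p under 0.05 in edgeR, Rora, a nuclear receptor, with a log2 fold change of 0.23 ± 0.10 (standard error) and an unadjusted p of 0.211 in edgeR after GC removal, and the highest in FPKM were Slc17a6 (0.20 ± 0.13) and Prkcd (0.22 ± 0.18). Of 10 neocortex markers, 2 passed, both lower with DHEA, Fezf2 (-0.39 ± 0.10) and Nr4a2 (-0.32 ± 0.10), while Tbr1 was at -0.13 ± 0.10. Of 10 striatum markers 0 passed, and Ppp1r1b and Penk were at 0.13 ± 0.15 and -0.04 ± 0.12. Raphe markers had 0 of 7, with Gata2 and Slc18a2 at 0.24 ± 0.17 and 0.13 ± 0.29, and with Gata3 and En1 at 0 in 1 and 3 libraries.

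Within the hippocampus, 1 of 9 dentate gyrus markers passed, Tdo2, which degrades tryptophan, the precursor of serotonin (0.44 ± 0.15), and C1ql2 and Stxbp6 were at -0.01 ± 0.10 and 0.06 ± 0.08. Of 8 CA1 markers, Man1a was higher (0.24 ± 0.08) and Gpr161 lower (-0.20 ± 0.09), and Ccn3 and Wfs1 were at -0.18 ± 0.11 and -0.10 ± 0.11. Of 10 CA3 and CA2 markers, Bok (0.24 ± 0.10) and Cpne4 (0.16 ± 0.07) were higher, and the unadjusted p of Cpne4 was 0.0727 in edgeR after GC removal. Among 7 dorsal and 10 ventral markers 0 passed, and the ventral markers Dcn and Calb2 were at -0.04 ± 0.11 and 0.05 ± 0.10. None of these genes had an adjusted p under 0.05 in edgeR, while Fezf2 had one of 0.0498 in DESeq2. Their part in the receptor values was not tested.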
